A study of Mus musculus with 3072 samples.

Results

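MHC class II-positive microglia were taken here as sorted brain cells with at least 1 read in at least 2 of the 4 genes Cd74, H2-Aa, H2-Ab1 and H2-Eb1. By this rule 100 of 1878 cells with counts were positive, and the other 1778 cells served for comparison, each within its own group. The cells were thus chosen by the read counts of these 4 genes, which are described and not tested.

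MHC class II molecules are pairs of an alpha and a beta chain that present peptides from the endosome to CD4 T cells. The invariant chain, encoded by Cd74, escorts newly made pairs and blocks their groove until lysosomal proteases and the H2-DM exchange factor free it for peptide. Resting microglia carry little MHC class II, and interferon gamma is a classical inducer. Class II-bearing microglia are known from ageing brain and from brain with amyloid plaques.

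The study sequenced single microglia of male mice after a sort for CD11b-positive, DAPI-negative cells, with a modified SmartSeq2 protocol that has no molecular identifiers. APP/PS1 mice carry the APPswe and PS1dE9 transgenes and form amyloid plaques, and the ApoeKO lines carry a null allele of Apoe, which encodes apolipoprotein E, a carrier of lipids. The 6 groups with counts were APP/PS1 cortex and APP/PS1 hippocampus at 17 months, and APP/PS1-ApoeKO cortex, APP/PS1-ApoeKO hippocampus, C57BL/6 cortex and C57BL/6-ApoeKO cortex at 18 months. C57BL/6 and C57BL/6-ApoeKO mice carry no amyloid transgene. APP/PS1 cortex and hippocampus groups at 18 months were also labelled and were not analysed here. Because no animals are named in the labels, a group counts as 1 sample and no test of the shares between groups was made. The 2 tests of an interaction below take whole groups as their units and have no spread between mice behind them. Intervals are exact 95% binomial (Clopper-Pearson) intervals on numbers of cells. They take cells as independent draws and cover counting error only, with no spread between mice, lanes or plates. Separately, reads without identifiers are not independent molecules. Genotype, age and sequencing lane cannot be told apart between the APP/PS1 groups and the others.

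Positive cells had a median of 626067 reads and 2356 genes, against 554635 reads and 2189 genes in the other cells. After each cell was thinned to 100000 reads the medians were 2058 and 1937 genes. From all reads, the median mitochondrial share was 2.68% against 2.23%. No 2 cells had identical counts, and 8 cells, none of them positive, had under 100000 reads. For the APP/PS1-ApoeKO cortex cells of lane 33, 9 of them positive, the labels give no read total. Apoe, the knocked-out gene, had reads in 34 of 36 and 23 of 26 positive cells of APP/PS1 cortex and hippocampus and in 4 of 7 of C57BL/6. It had reads in 0 of 12, 1 of 10 and 0 of 9 positive cells of APP/PS1-ApoeKO cortex, APP/PS1-ApoeKO hippocampus and C57BL/6-ApoeKO.

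The label microglia was checked against 15 genes of homeostatic microglia. Positive cells had reads of a median of 14 of these genes (range 6 to 15), as did the other cells (median 14, range 4 to 15). P2ry12, the purinergic receptor used to mark microglia, was read in 97 positive cells, and Tmem119, a microglial membrane protein, in 94. Reads of at least 3 of 10 markers of another blood or border cell type were found in 6 of the 100 positive and 11 of the 1778 other cells. Among the positive ones 4 met the monocyte list, 1 the neutrophil list (S100a9, Ngp, Csf3r and Lcn2) and 1 the border-associated macrophage list (Mrc1, Cd163, Pf4 and Cbr2). A monocyte-list cell of APP/PS1-ApoeKO hippocampus held 5743 reads of the 4 class II genes, and 1 of APP/PS1 hippocampus held 3284. These cells also had reads of 13 and 14 homeostatic genes. The other monocyte-list cells had reads of 6 (APP/PS1 hippocampus, with all 4 class II genes and 47 reads of them) and 10 homeostatic genes (APP/PS1 cortex, with 2 class II genes and 4 reads). Without all cells of this kind the share of positive cells was 11.3% in APP/PS1 cortex, 8.92% in APP/PS1 hippocampus and 1.87 to 3.63% in the other groups. Summed monocyte markers ranged from 388 to 3342 reads per 1000000 (RPM) over the positive cells of the 6 groups and from 510 to 1677 RPM over the other cells. Lyz2, which microglia also express, made up most of that sum, at 1958 RPM in positive and 1017 RPM in other cells. Summed border-macrophage markers reached 54.2 RPM in positive and 19.3 RPM in other cells at most. Dendritic-cell markers ranged from 3.59 to 48.4 RPM in positive and from 31.1 to 50.3 RPM in other cells, and Flt3, Ccr7, Clec10a and Ffar2 were at 0 in positive cells. The B-cell markers Ms4a1, Pax5, Igkc, Fcmr and Blk were at 0 in positive cells. Ighm, with reads in 65 positive and 1198 other cells, carried most of the B-cell list's 287.4 to 1543 RPM in positive cells (433 to 639 RPM in other cells).

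Cd74 was the class II gene most often read, and the pair Cd74 and H2-Ab1 the most common combination. Over all cells, Cd74 had reads in 16.4% of cells, and positive cells held 69.7% of its reads. H2-Ab1, the A beta chain, had reads in 8.04% of cells, with 68.2% of its reads in positive cells. H2-Eb1, the E beta chain, had reads in 62 cells (3.30%) and H2-Aa, the A alpha chain, in 53 cells (2.82%). For these genes 95.9% and 99.9% of reads lay in positive cells. Among the 100 positive cells, 39 had Cd74 with H2-Ab1 alone, 22 had all 4 genes, 12 had Cd74 with H2-Eb1, and 3 had no Cd74 read. The H2-Eb1 partner chain E alpha was listed as H2-Ea-ps and had no read in any cell.

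The promoters of H2-Aa and H2-Eb1 are shown because over all cells most of their reads lay in positive cells, and because these 2 of the 4 genes were in the table of promoters used. By group the share of H2-Eb1 reads in positive cells was 98.9% in both APP/PS1 groups, 53% and 39.8% in APP/PS1-ApoeKO cortex and hippocampus and 16.4% in C57BL/6. Each line gives the 120 bases before the annotated start from RefSeq (GRCm38.p6), 5′ to 3′ on the gene's strand. Capitals mark CCAAT, the core of the Y box, on either strand (ATTGG on the other) and TGACG, the core of the X2 box, on either strand. These boxes are elements of class II promoters.
H2-Aa, chr17:34287824-34287943, minus strand: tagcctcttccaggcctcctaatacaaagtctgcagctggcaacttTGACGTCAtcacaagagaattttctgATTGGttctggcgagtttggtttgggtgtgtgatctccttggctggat
H2-Eb1, chr17:34305747-34305866, plus strand: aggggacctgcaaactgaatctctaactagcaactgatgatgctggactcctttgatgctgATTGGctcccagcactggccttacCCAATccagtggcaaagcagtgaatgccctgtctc
Searched over 300 bases (250 before and 50 after the start) on both strands, H2-Aa held CCAAT on the minus strand at -48 to -44. It held TGACG on the plus strand at -74 to -70 and on the minus strand at -71 to -67, 2 matches that overlap. H2-Eb1 held CCAAT at -59 to -55 on the minus strand and at -35 to -31 on the plus strand, and no TGACG. Neither held the interferon-stimulated response element. Of 32851 promoters of the same length, 37.4% held CCAAT, 20.8% TGACG, 7.73% both and 3.44% the interferon-stimulated response element. The genes lie on chromosome 17 of GRCm38, H2-Ab1 at 34257689 to 34269419, H2-Aa at 34282744 to 34287823 and H2-Eb1 at 34305867 to 34316674, all protein-coding.

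Over all groups together the median level of the 4 genes was higher the more of them a cell had, and the levels on either side of the rule's limit overlapped. Of the 1878 cells, 1467 had reads of none. The cells just outside the rule, with 1 gene, had a median of 77 reads of it, and 62 of them had at most 5 reads. The 59 cells just inside, with 2 genes, had a median level of 644 RPM. The 19 cells with 3 genes had 1534 RPM, and the 22 cells with all 4 had 4798 RPM. In 18 positive cells the second most read gene had 1 read, and in 79 it had at least 5. The order was not the same in each group. In APP/PS1-ApoeKO cortex the median level was 379.5, 280.5 and 71.5 RPM with 2, 3 and 4 genes (7, 4 and 1 cells), and in C57BL/6 361.8 and 248.3 RPM with 2 and 3 genes (5 and 2 cells). The single APP/PS1-ApoeKO hippocampus cell with 3 genes had 5.62 RPM, against a median of 332.7 RPM with 2. These counts describe the rule and were not tested.

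MHC class II-positive cells made up a larger share of the APP/PS1 groups than of the other groups. They were 36 cells in APP/PS1 cortex (11.6% of its cells, interval 8.24 to 15.7%) and 26 in APP/PS1 hippocampus (9.52%, 6.32 to 13.6%). They were 12 APP/PS1-ApoeKO cortex cells (3.59%, 1.87 to 6.19%) and 10 APP/PS1-ApoeKO hippocampus cells (3.12%, 1.5 to 5.65%). In C57BL/6 cortex they were 7 cells (2.15%, 0.868 to 4.37%) and in C57BL/6-ApoeKO cortex 9 (2.88%, 1.32 to 5.39%). The counting intervals of both APP/PS1 groups lay above those of the 4 other groups, which overlapped each other. They hold no spread between mice, so they do not test the conditions. With at least 3 genes required, the shares in the same order were 4.82%, 4.76%, 1.5%, 0.935%, 0.613% and 0.958%. After thinning to 100000 reads per cell they were 10.3%, 8.82%, 1.80%, 2.19%, 1.53% and 2.27%. Without the APP/PS1-ApoeKO cortex cells of no labelled read total, that group's share was 1.78% (3 positive cells).

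Within a group the share also differed between lanes. It was 17% in lane 41 and 6.33% in lane 42 of APP/PS1 cortex, and 12.4% and 6.94% in the same lanes of APP/PS1 hippocampus. In APP/PS1-ApoeKO it was 5.45% (lane 33) and 1.78% (lane 34) in cortex and 0.606% (lane 35) and 5.77% (lane 36) in hippocampus. In lanes 37 and 38 it was 1.23% and 3.05% in C57BL/6 and 1.91% and 3.85% in C57BL/6-ApoeKO. The 4 APP/PS1 lanes thus did not overlap with the 8 other lane values. The plates named in the titles did overlap, with 2.60 to 19.7% in the APP/PS1 groups and 0 to 7.23% in the others. Which of lane, plate and mouse goes with these differences was not tested.

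**Figure D1:**
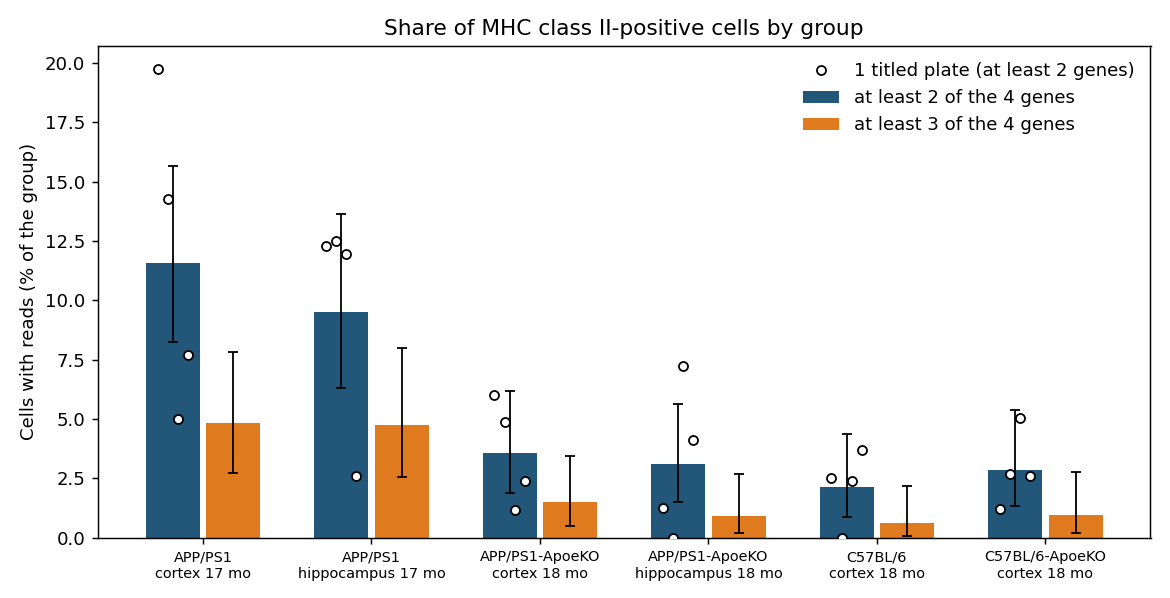
Share of cells positive by the rule (blue, at least 2 genes) or by the stricter limit (orange, at least 3 genes) in each group, in percent of the group's cells; bars start at 0, error bars are exact 95% binomial intervals, and open circles are the titled plates. The APP/PS1 bars stand at 11.6% and 9.52% and the 4 others at 2.15 to 3.59%, while the plates of APP/PS1 cortex spread from 5 to 19.7%.

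Positive cells of the groups also differed in how much class II RNA they held. Median Cd74 reads per positive cell were 502.5 in APP/PS1 cortex and 693.5 in APP/PS1 hippocampus. They were 9 in APP/PS1-ApoeKO cortex, 89.5 in APP/PS1-ApoeKO hippocampus and 85 in C57BL/6, and the median of C57BL/6-ApoeKO lay between these and the APP/PS1 values. Cells with all 4 genes numbered 6 of 36 in APP/PS1 cortex, 12 of 26 in APP/PS1 hippocampus, and 1 of 12, 2 of 10, 0 of 7 and 1 of 9 in the remaining groups in the order above. In APP/PS1-ApoeKO cortex only 7.60% of the group's Cd74 reads lay in positive cells, against 75.3% in APP/PS1 cortex and 85.6% in APP/PS1 hippocampus. Cd74 itself was read in 32.8% and 22.7% of all APP/PS1 cortex and hippocampus cells and in 8.63 to 13.5% of cells in the other groups.

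Genes other than the 4 were compared between positive and other cells with counts summed by group and class, in the 4 groups with at least 10 positive cells. This test, edgeR's quasi-likelihood test with group as a block and Benjamini-Hochberg adjustment, called no gene. In a check on simulated data it did not call most genes given a known change, also at large changes. The lack of calls therefore does not show that the classes were alike. Of 11429 genes, 0 were higher (0%) and 0 lower (0%) at an adjusted p of 0.05, and 79 (0.691%) were higher and 560 (4.9%) lower at an unadjusted p under 0.05, together 639 (5.59%). DESeq2 on the same sums called 45 higher (0.394%) and 614 lower (5.37%). The median log2 fold change over all genes tested was -0.77, so a gene at 0 already stood above the median gene. The interaction of class with the Apoe knockout called 0 genes by edgeR (0%), with 439 (3.84%) at an unadjusted p under 0.05, while DESeq2 called 3.18% of genes. The interaction with amyloid could not be fitted in these groups, and in a fit of all 6 groups, added later, it called 0 of 11166 genes (0%), with 681 (6.1%) at an unadjusted p under 0.05. No gene below is therefore said to have changed between positive and other cells, and values are given as a description.

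A second measure, chosen after the first was seen, was the share of cells with reads of a gene at 100000 reads per cell. The other cells were weighted to the group makeup of the positive cells. By it 3.3% of the 11429 genes were read in a share at least 10 percentage points higher in positive cells, and 39 (0.341%) at least 10 points lower. Over all genes the median difference was 0.83 points. At this depth positive cells had a median of 2058 genes with reads, and other cells of 1937. The summed counts leaned the other way, with 79 genes higher and 560 lower at an unadjusted edgeR p under 0.05. Without APP/PS1 hippocampus 5.86% of genes stood at least 10 points higher, and without APP/PS1 cortex or APP/PS1-ApoeKO cortex 0.901% and 0.612% stood at least 10 points lower. Because the limit and the measure were chosen with the values known, these shares carry no test.

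Genes of activated, plaque-associated microglia were read more often in positive cells. Of 18 listed genes tested, 11 stood at least 10 points higher and 0 lower, against 3.3% and 0.341% of all genes. The median difference was 11 points. Without APP/PS1 cortex 5 stood at least 10 points higher. None passed the edgeR test. At an unadjusted p under 0.05, 6 were higher and 0 lower, against 0.691% and 4.9% of all genes. The median log2 fold change was 0.69. Cst7, the gene of the protease inhibitor cystatin F, had the largest difference of all 11429 genes, at 45% of positive and 13.5% of other cells. Its log2 fold change was 1.91 ± 0.43 (SE), with an edgeR adjusted p of 0.787. Without cells with at least 3 markers of another type it was 0.73, and over all settings it ranged from 0.73 to 2.63. Axl, a receptor tyrosine kinase for apoptotic cells, was read in 34% against 9.88%, and Itgax, the gene of CD11c, in 31% against 11.8%. Clec7a, the gene of the receptor dectin-1, was read in 31% against 11.7%. Ccl6, a chemokine, was read in 51% against 33%, and Cd63, a tetraspanin of late endosomes, in 85% against 70.2%. Less often read were Csf1 (19% against 4.76%), Igf1 (15% against 3.35%), Lpl (15% against 4.72%) and Fabp5 (13% against 2.99%). Trem2 and its adaptor Tyrobp were read in 98% and 100% of positive and in 99.1% and 99% of other cells, so the share could not separate the classes for them. Spp1 had reads in 6 positive cells and Gpnmb in 1, too few to be tested.

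**Figure D2:**
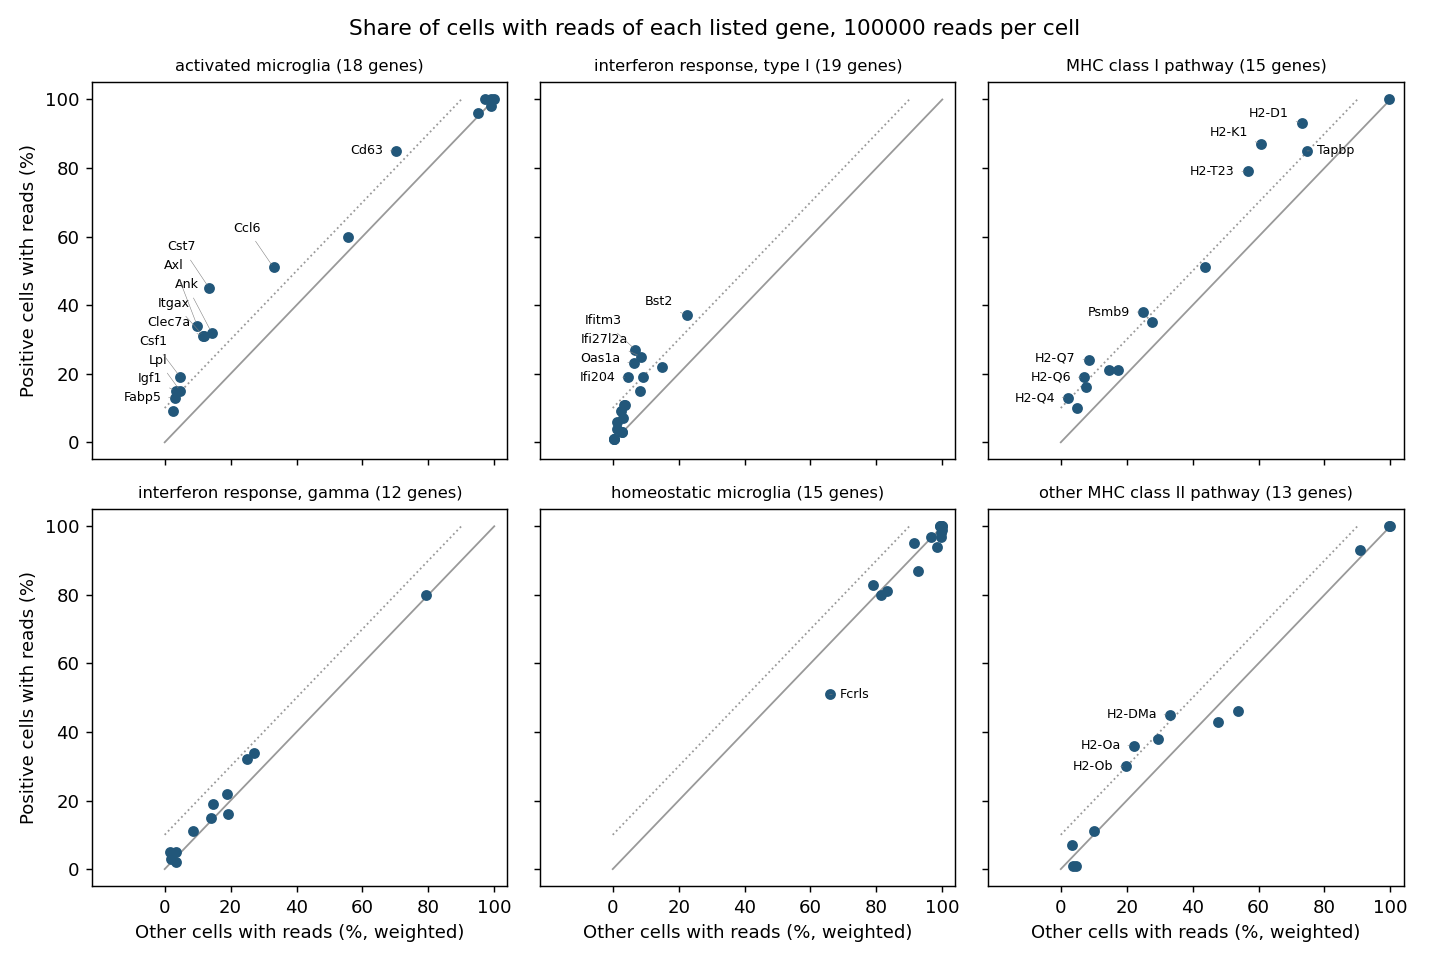
Share of cells with reads of each tested gene of 6 lists at 100000 reads per cell, in percent, in positive cells (y axis) against other cells weighted to the same groups (x axis); each point is 1 gene, the solid line marks equal shares and the dotted line a 10-point difference. Activated and MHC class I genes hold 11 of 18 and 8 of 15 points on or above the dotted line. The gamma interferon list holds 0 of 12, and 3.3% of all genes tested stood that high.

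By group, Cst7 was read in 23 of 36 positive cells of APP/PS1 cortex (63.9%) and in 7 of 26 of APP/PS1 hippocampus (26.9%). It was read in 6 of 12 of APP/PS1-ApoeKO cortex, 3 of 10 of APP/PS1-ApoeKO hippocampus, 1 of 7 of C57BL/6 and 5 of 9 of C57BL/6-ApoeKO. The other cells of these groups had Cst7 in 21.1%, 11.3%, 14.6%, 11.3%, 2.19% and 11.2%. The share was thus higher in positive cells in 6 of 6 groups. The summed Cst7 level was 1519 RPM against 243.6 RPM in APP/PS1 cortex, 250.6 against 114.5 RPM in APP/PS1 hippocampus, 207.2 against 129.7 RPM in APP/PS1-ApoeKO cortex and 403 against 52.8 RPM in APP/PS1-ApoeKO hippocampus. Within lanes of APP/PS1 cortex the Cst7 shares were 61.5% against 21.3% (lane 41) and 70% against 21% (lane 42). In APP/PS1 hippocampus they were 18.8% against 12.4% (lane 41) and 40% against 10.5% (lane 42). In the former of these hippocampal lanes the summed Cst7 level was lower in positive cells, with a log2 ratio of -0.83.

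Clec7a, Itgax and Axl followed the same order in APP/PS1 tissue by group, with an exception within a lane, and differed between the other groups. Clec7a was read in 61.1% of positive and 19.3% of other cells of APP/PS1 cortex and in 23.1% and 12.2% in APP/PS1 hippocampus. Within hippocampus lane 41 Clec7a was read less often in positive cells, at 6.25% against 10.6%, with a log2 ratio of -3.81 of the summed level, and in lane 42 it was read in 50% against 13.4%. In APP/PS1-ApoeKO hippocampus it was read in 3 of 10 positive cells (30%), and in APP/PS1-ApoeKO cortex in 0 of 12 (a limit of 25% for cells with a read by 3 cells of 12, and of 26.5% by the exact interval), with 7.14% in the other cells there. Itgax was read in 61.1% against 19.3% in APP/PS1 cortex and in 26.9% against 11.3% in APP/PS1 hippocampus. By lane of hippocampus Itgax was read in 18.8% against 12.4% (lane 41) and 40% against 10.4% (lane 42), and Axl in 18.8% against 12.4% and 50% against 6.72%. In the 4 other groups Itgax had reads in 2 of 12, 1 of 10, 0 of 7 and 0 of 9 positive cells. Axl was read in 55.6% against 15.6% in APP/PS1 cortex, 30.8% against 9.31% in APP/PS1 hippocampus and 40% against 8.36% in APP/PS1-ApoeKO hippocampus. In the remaining groups the summed Axl level was lower in positive cells. Its log2 ratio was -0.93 in APP/PS1-ApoeKO cortex, -2.18 in C57BL/6 and -5.29 in C57BL/6-ApoeKO. For Itgax, Clec7a and Axl the positive cells outside APP/PS1 tissue numbered at most 12 a group, and the intervals there overlapped those of the other cells except for Axl in APP/PS1-ApoeKO hippocampus.

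Genes of the MHC class I pathway were the other group read more often in positive cells. Class I molecules present peptides from the cytosol to CD8 T cells. Of 15 genes tested, 8 stood at least 10 points higher and 0 lower, against 3.3% and 0.341% of all genes. The median difference was 10.3 points. None passed the edgeR test. At an unadjusted p under 0.05, 3 were higher and 0 lower, against 0.691% and 4.9% of all genes. The median log2 fold change was 0.83. The classical heavy chains were read in 87% against 60.9% (H2-K1) and 93% against 73.2% (H2-D1) of cells. Their log2 fold changes were 0.93 ± 0.39 and 1.13 ± 0.34 (SE). The non-classical H2-T23, which encodes Qa-1, was read in 79% against 56.8%, with 0.98 ± 0.22 and an edgeR adjusted p of 0.787. B2m, the light chain, was read in all positive cells, with a log2 fold change of 0.51 ± 0.22. The immunoproteasome subunit Psmb9 was read in 38% against 25%, and the peptide transporter Tap1 in 21% against 14.6%. H2-Q4, H2-Q6 and H2-Q7 were read in 13%, 19% and 24% of positive cells, but these near-identical paralogs can share reads, so the values are uncertain. H2-K1, H2-D1 and the class II genes are likewise members of families.

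H2-K1 was read in 33 of 36 and 22 of 26 positive cells of APP/PS1 cortex and hippocampus, with summed levels of 1390 against 502 RPM and 1459 against 473 RPM. In APP/PS1-ApoeKO hippocampus the level was 1620 against 846 RPM, whereas in APP/PS1-ApoeKO cortex it was lower in positive cells, at 469 against 749 RPM. H2-D1 followed with 823 RPM in positive and 1021 RPM in other cells of APP/PS1-ApoeKO cortex, and B2m with 3672 and 4539 RPM. In that group 9 of 12 positive cells were those of lane 33 and the median of Cd74 reads was 9. The interaction of class with the Apoe knockout for H2-K1 had an unadjusted edgeR p of 0.042 and did not pass adjustment. H2-T23 was read more often in positive cells in 6 of 6 groups, from 71.4% against 51.7% in C57BL/6 to 90% against 62.1% in APP/PS1-ApoeKO hippocampus. Its summed level was higher in 5 of 6 groups and lower in C57BL/6-ApoeKO, at 158.7 against 247.2 RPM.

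**Figure D3:**
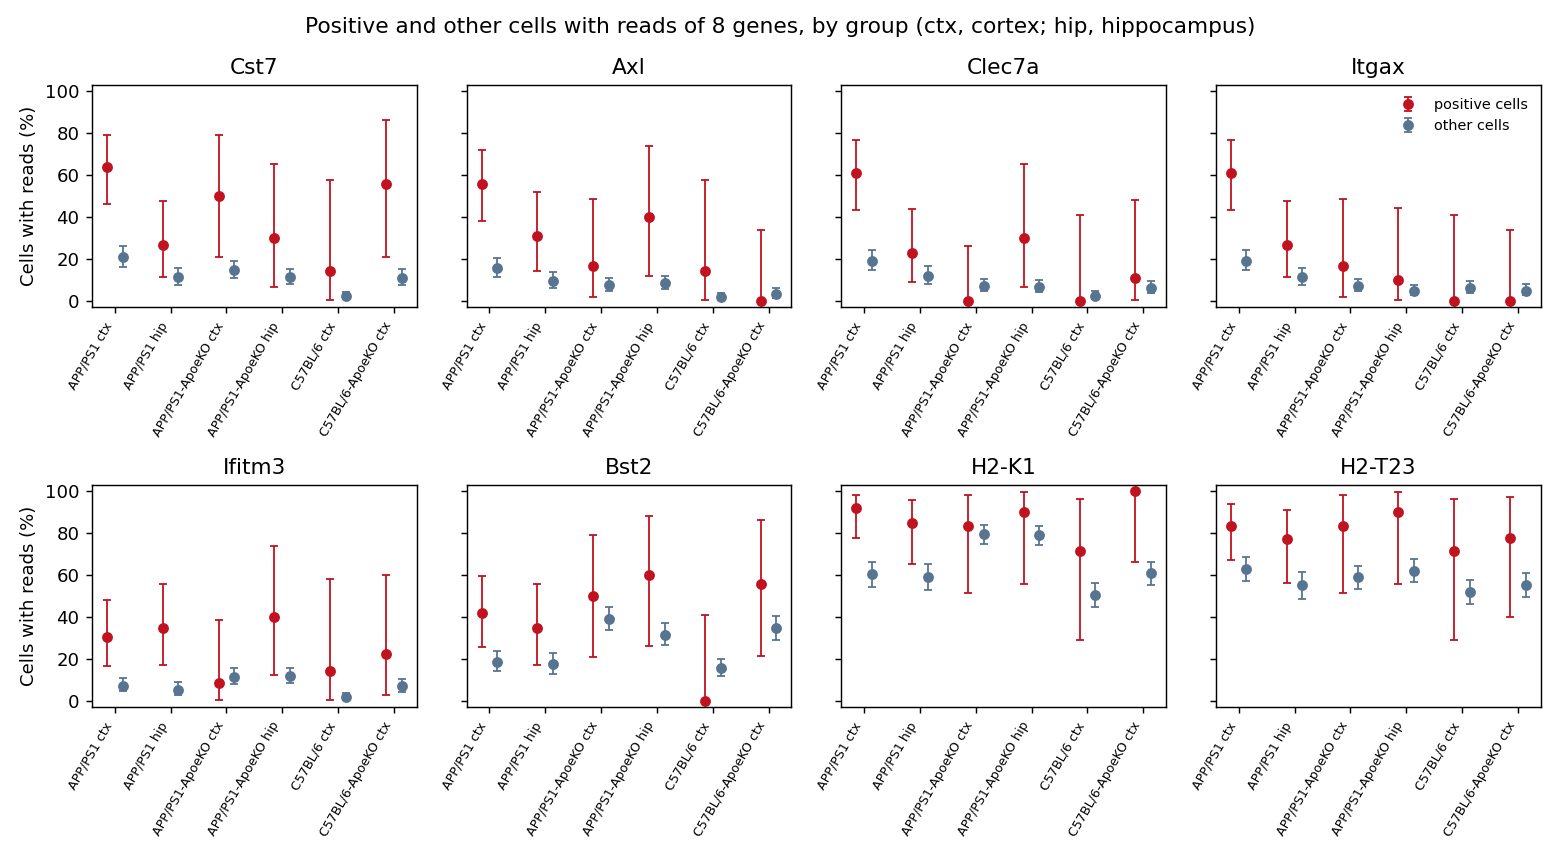
Share of positive (red) and other (blue-grey) cells with reads of 8 genes in each group, in percent, from all reads; error bars are exact 95% binomial intervals for counting error. In APP/PS1 cortex Cst7, Axl, Clec7a and Itgax stand at 55.6 to 63.9% in positive cells and at 15.6 to 21.1% in other cells, and H2-K1 is at or above 71.4% of positive cells in each group.

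Type I interferon-response genes were read in more positive cells, in a smaller part of the list. Of 19 tested, 5 stood at least 10 points higher and 0 lower, against 3.3% and 0.341% of all genes. The median difference was 6.87 points. With at least 3 class II genes required, 9 stood at least 10 points higher. None passed the edgeR test, and 0 had an unadjusted p under 0.05 in either direction (5.59% of all genes). The median log2 fold change of 0.89 turned negative with at least 3 class II genes required (-1.09), in the cortex groups alone (-0.98) and without APP/PS1 hippocampus (-0.18). Ifitm3, which restricts virus entry, was read in 27% of positive and 6.89% of other cells. Ifi27l2a was read in 25% against 8.52%, Oas1a, an oligoadenylate synthetase, in 23% against 6.37%, Ifi204 in 19% against 4.77% and Bst2, the gene of tetherin, in 37% against 22.4%. Isg15, a ubiquitin-like modifier, was read in 3% against 2.70%. For Ifitm3 the APP/PS1 groups stood at 30.6% against 7.27% in cortex and 34.6% against 5.26% in hippocampus. Within lanes 41 and 42 these were 30.8% against 6.30% and 30% against 8.11% in cortex, and 25% against 5.31% and 50% against 5.22% in hippocampus. In APP/PS1-ApoeKO cortex Ifitm3 was read in 1 of 12 positive cells (8.33%) and in 11.5% of the other cells.

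Genes of the gamma interferon response gave small differences by share. Of 12 tested, 0 stood at least 10 points higher or lower. In either direction 0 had an unadjusted edgeR p under 0.05, against 5.59% of all genes. The median difference was 2.04 points (0.83 over all genes), and 10 of 12 were higher at all by share, against 7015 of 11429 genes. Since 3.3% of all genes stood at least 10 points higher, 0 of 12 does not set this list apart. Irf8, a factor of myeloid cells, was read in 80% against 79.4%. Igtp, an immunity-related GTPase, was read in 16% against 19.1%. Ciita, the class II transactivator, had reads in 2 positive and 4 other cells and could not be tested.

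In the remaining class II pathway the median difference was close to that of all genes, while single genes stood higher. Of 13 genes tested, 3 stood at least 10 points higher and 0 lower, against 3.3% and 0.341% of all genes. The median difference was 0.93 points (0.83 over all genes). None passed the edgeR test. At an unadjusted p under 0.05, 3 were higher (H2-Oa, Ctsl and Ctss) and 0 lower, against 0.691% and 4.9% of all genes. The genes at least 10 points higher by share were H2-Oa (36% against 22.2%), H2-DMa (45% against 33.1%) and H2-Ob (30% against 19.9%). For H2-Ob the log2 fold change did not keep its sign over the settings, ranging from -1.21 to 0.53. H2-DM exchanges the invariant chain remnant for peptide and H2-O inhibits it. H2-Oa was read more often in positive cells in 6 of 6 groups, and its log2 fold change was 1.10 ± 0.40 with an unadjusted edgeR p of 0.029. Ctss, the protease that trims the invariant chain, had reads in every cell, at 14430 RPM in positive and 12490 RPM in other cells. The regulators Rfx5, Rfxank and Rfxap were read in 1%, 11% and 7% of positive and 3.65%, 10.1% and 3.32% of other cells. Co-stimulation genes gave 0 of 8 at least 10 points higher or lower, against 3.3% and 0.341% of all genes. Cd86, the main co-stimulatory ligand here, was read in 68% against 63.8%, and Cd40 had reads in 1 positive cell.

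For most homeostatic genes the share could not separate the classes, being near 100% in both. Of 15 tested, 0 stood at least 10 points higher and 1 lower, against 3.3% and 0.341% of all genes. The median difference was -0.87 points. None passed the edgeR test. At an unadjusted p under 0.05, 0 were higher and 2 lower, against 0.691% and 4.9% of all genes. The lower ones were Cx3cr1 (log2 fold change -0.22) and Olfml3 (-0.25). By summed level 6 of 15 were lower and 1 higher in each of the 4 groups, against 12.5% and 3.71% of all genes compared this way. P2ry12 was read in 97% against 99.7%, with summed levels of 3358 against 5016 RPM in APP/PS1 cortex and 5485 against 5078 RPM in APP/PS1-ApoeKO cortex. Fcrls, an Fc receptor-like gene of microglia, was read in 51% against 65.8%. By group it was read in 38.9% against 51.6% in APP/PS1 cortex, 38.5% against 53.9% in APP/PS1 hippocampus, 91.7% against 92.9% in APP/PS1-ApoeKO cortex and 90% against 93.9% in APP/PS1-ApoeKO hippocampus.

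Of 12 lysosome genes, 2 stood at least 10 points higher and 0 lower, against 3.3% and 0.341% of all genes. The higher ones were Gusb (71% against 58%) and Npc2 (93% against 82.5%). At an unadjusted p under 0.05, 3 were higher and 0 lower, against 0.691% and 4.9% of all genes. Hexa, a beta-hexosaminidase subunit, had a log2 fold change of 0.59 ± 0.12 with an unadjusted edgeR p of 0.0017. Among 10 chemokine and cytokine genes 1 stood at least 10 points higher, Ccl3 (28% against 15.6%). Of 9 complement and Fc receptor genes 0 did, but C1qa, C1qb and C1qc were read in all positive cells, so the share could not separate the classes for them. In the edgeR test none of the 9 passed. At an unadjusted p under 0.05, 3 of the 9 were higher and 0 lower, against 0.691% and 4.9% of all genes. Among them were the complement genes C1qa (log2 fold change 0.25 ± 0.08) and C1qb (0.22 ± 0.09). Among 7 immediate early genes 1 stood at least 10 points higher by share, Junb (37% against 23.4%). Dusp1 had no read in positive cells and reads in 29 other cells. None of 9 cell cycle genes stood at least 10 points higher, against 3.3% of all genes.

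Outside the lists, the largest differences by share, chosen after their values were seen, included Lgals3bp, a secreted galectin ligand, at 77% of positive cells (27.1 points higher). Mif, a cytokine (24.6 points), the respiratory chain gene Uqcrh (23.6 points), Aplp2, a relative of the amyloid precursor (23.3 points), and Tspo, a protein of the outer mitochondrial membrane (23 points), followed. Lower by share were Orc3 (-15 points), Stab1 (-14.2 points), Crybb1 (-14 points) and Siglece (-13.8 points). By log2 fold change, the genes with at least 20 RPM and the same direction in the 4 groups tested included Mrgpre (2.73 ± 0.76), Aifm1 (1.73 ± 0.54) and Cox6a2 (1.66 ± 1.10). Mrgpre had reads in 11 positive cells. Lower were Cand1 (-9.71 ± 2.37), Arrdc3 (-9.36 ± 3.40) and Med9 (-7.92 ± 3.00), with reads in 5, 3 and 6 positive cells. These are fitted values over sums close to 0, not limits, and ranged over the settings from -14.77 to -5.96, -13.98 to -3.28 and -9.95 to -2.22. Each of these had an edgeR adjusted p of at least 0.787. Of 6257 genes at that level, 3.71% were higher and 784 (12.5%) lower in each of the 4 groups. In C57BL/6 and C57BL/6-ApoeKO, left out of the test, the summed log2 ratios were -4.25 and -2.66 for Mrgpre and -2.86 and -2.37 for Cox6a2. Those of Cand1 were 0.62 and 1.43, and those of Arrdc3 1.955 and -5.46. Aifm1 (1.61 and 2.81) and Med9 (-5.15 and -5.68) kept their direction there.

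The overlap with the activated and interferon programmes was counted cell by cell. Positive cells had reads of a median of 8 of 20 activated genes (range 5 to 19) and other cells of 7 (range 1 to 17). In APP/PS1 cortex the medians were 12 and 8. The planned limit of 5 activated genes did not separate the classes, being met by 100 of 100 positive and 1738 of 1778 other cells (97.8%). At a limit of 10 genes, chosen after the values were seen, 34 of 100 positive cells (34%, 24.8 to 44.2%) and 6.13% of other cells counted as activated. These pooled shares were not weighted by group. Of the 100 positive cells, 36 and 26 came from APP/PS1 cortex and hippocampus, where the other cells also counted as activated most often. The gap between the pooled shares thus includes the difference in group makeup. By group, the activated cells were 25 of 36 positive cells in APP/PS1 cortex (69.4%) against 20.7% of the others. In APP/PS1 hippocampus they were 7 of 26 (26.9%) against 10.9%. In the 4 other groups they were 0 of 12, 1 of 10, 1 of 7 and 0 of 9 positive cells. Apoe, the knocked-out gene, is one of the 20. With Apoe not counted and the limit kept at 10, an alternative chosen after the data were seen, 23 of 36 positive cells of APP/PS1 cortex (63.9%) against 13.5% of the others counted as activated. In APP/PS1 hippocampus 6 of 26 (23.1%) against 8.91% did, and in the 4 other groups 0 of 12, 1 of 10, 0 of 7 and 0 of 9 positive cells. The others of those 4 groups stood at 1.86%, 3.22%, 0.627% and 1.97%. Of the positive cells 4 lay at 10 genes and 10 at 9, so the class is a range on a continuous scale.

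At least 5 of 20 type I interferon genes were read in 19 of 100 positive cells (19%, 11.8 to 28.1%) and in 88 of 1778 other cells (4.95%, 3.99 to 6.06%). The positive cells were 8 of 36 in APP/PS1 cortex (22.2%) and 7 of 26 in APP/PS1 hippocampus (26.9%), against 3.27% and 3.64% of the others. In the 4 other groups they were 1 of 12 (8.33%), 2 of 10, 0 of 7 and 1 of 9. The others there stood at 7.76%, 8.36%, 1.57% and 4.61%, so the 2 classes of APP/PS1-ApoeKO cortex had nearly the same share. The pooled shares were not weighted by group here either. Thinned to 100000 reads per cell, 16 of 100 positive and 81 of 1770 other cells met the limit. In APP/PS1-ApoeKO cortex these were 0 of 12 positive cells and 7.14% of the others. Within lanes the interferon-positive shares in APP/PS1 cortex were 19.2% against 3.15% (lane 41) and 30% against 3.38% (lane 42). In APP/PS1 hippocampus they were 31.3% against 3.54% and 20% against 3.73%. The activated shares were 73.1% against 18.1% and 60% against 23% in cortex. In hippocampus lane 41 they were 12.5% against 12.4%, and in lane 42 they were 50% against 9.70%.

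Positive cells were also sorted by both limits. Of the 100, 7 met both, 27 the activated limit alone, 12 the interferon limit alone and 54 neither, against 9, 100, 79 and 1590 of the 1778 other cells. With 34 and 19 of the 100 past the activated and the interferon limit, few would meet both even if the limits were unrelated. Whether the limits were related was not tested. In APP/PS1 cortex 5 met both, 20 the activated limit alone, 3 the interferon limit alone and 8 neither. In APP/PS1 hippocampus the counts were 1, 6, 6 and 13. Seen from the other side, positive cells were 23.8% of all cells with at least 10 activated genes and 17.8% of those with at least 5 interferon genes. In APP/PS1 cortex they were 30.5% and 47.1% of such cells, and in APP/PS1 hippocampus 20.6% and 43.8%. In APP/PS1-ApoeKO cortex and hippocampus they were 3.85% (1 of 26) and 7.14% (2 of 28) of interferon cells. For comparison, positive cells were 100 of all 1878 cells. They were 11.6% and 9.52% of all APP/PS1 cortex and hippocampus cells, and 3.59% and 3.12% of those of APP/PS1-ApoeKO. The 3.85% was thus near the share of positive cells in its group.

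**Figure D4:**
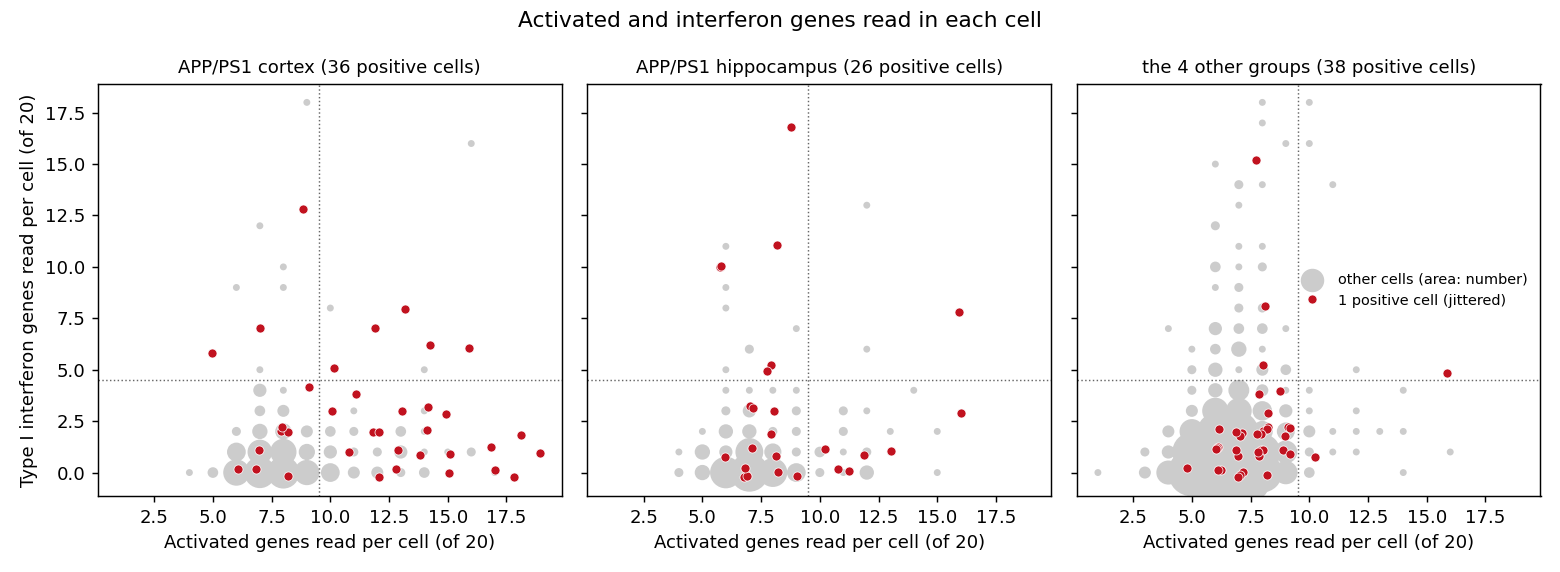
Number of activated (x axis) and type I interferon genes (y axis) with reads in each cell, of 20 each; red points are single positive cells, grey areas scale with the number of other cells, and dotted lines mark the limits of 10 and 5 genes. In APP/PS1 cortex 25 of 36 red points lie right of the vertical line, and in APP/PS1 hippocampus 6 of 26 lie above the horizontal line and left of the vertical one.

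The number of class II genes read per cell was set beside other genes at 100000 reads per cell. In APP/PS1 cortex the share of cells with Cst7 was 12.9%, 33.3%, 52.4% and 80% with 0, 1, 2 and at least 3 class II genes. Axl followed with 9.79%, 28.4%, 47.6% and 66.7%, and H2-K1 with 54.6%, 64.2%, 90.5% and 93.3%. In APP/PS1 hippocampus Cst7 stood at 7.43%, 27.3%, 38.5% and 15.4%, so the highest class did not continue the order there. Ifitm3 in APP/PS1 hippocampus stood at 3.47%, 11.4%, 23.1% and 46.2%. In the 3 ApoeKO groups together Cst7 was read in 10.7%, 17.9%, 45% and 45.5%. The cells with 2 and with at least 3 class II genes numbered 21 and 15 in APP/PS1 cortex, 13 and 13 in hippocampus and 20 and 11 in the ApoeKO groups. P2ry12 stood between 84.6% and 100% in each class.

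**Figure D5:**
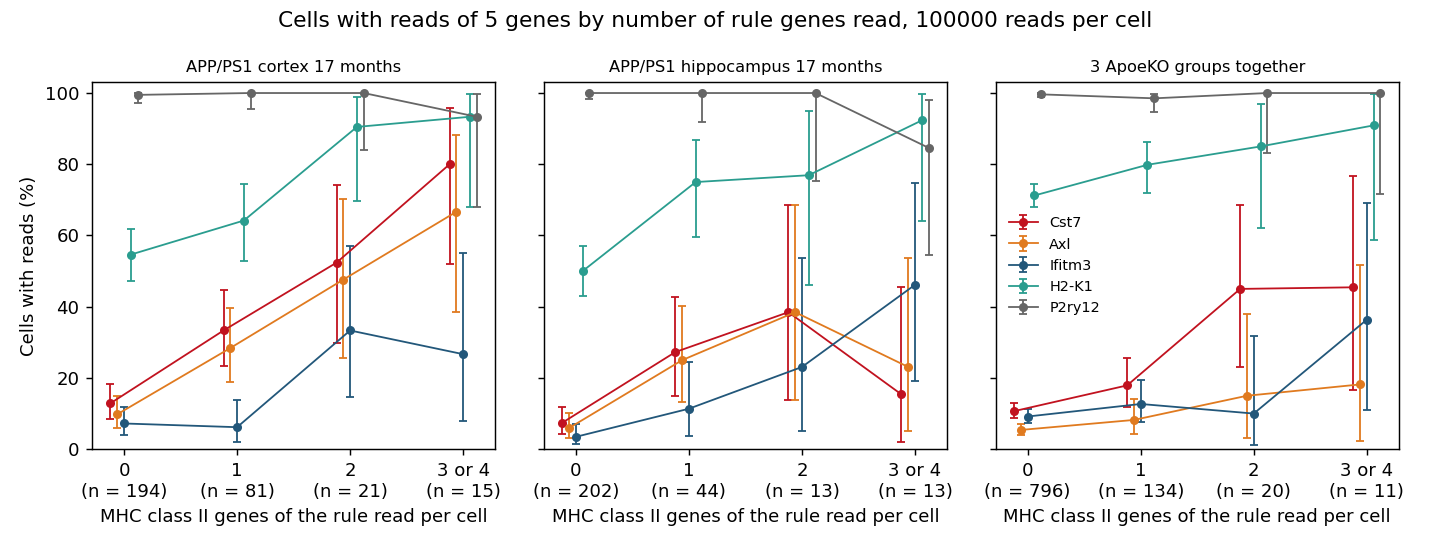
Share of cells with reads of 5 genes at 100000 reads per cell, in percent, by the number of class II genes read per cell (0, 1, 2, 3 or 4) in APP/PS1 cortex (left), in APP/PS1 hippocampus (middle) and in the 3 ApoeKO groups together (right); error bars are exact 95% binomial intervals. Cst7 goes from 12.9 to 80% in APP/PS1 cortex and from 7.43 to 15.4% in APP/PS1 hippocampus, and P2ry12 stays at or above 84.6%.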

How the data were processed

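The authors deposited whole-number read counts per gene for each cell, with 29474 genes and 1878 cells, and 1878 columns matched a labelled well by title. The groups held 311 (APP/PS1 cortex), 273 (APP/PS1 hippocampus), 334 and 321 (APP/PS1-ApoeKO cortex and hippocampus), 326 (C57BL/6) and 313 cells (C57BL/6-ApoeKO). Cells had 68354 to 1320640 reads in genes. Seurat 2.3.1, STAR 2.5.2, featureCounts 1.5.1 and the mm10 genome are named, with no order, per the submitters' processing notes. How strand, overlapping genes and multimapping reads were treated was not given in the sources used here. Paralogs of the H2 families can share reads. The deposited normalised natural-log values were not used. The cells, the gene lists and the rule were chosen with earlier results of these data known.

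Counts were summed by group and class and tested with edgeR 4.0.16 (R 4.3.3), after a check on simulated data, in which most genes given a known change were not called, also at large changes. Genes with 1 RPM and 10 reads in at least 4 sums were kept, and the 4 class II genes stayed in library sizes and out of the tests. DESeq2 1.42.0 was an alternative. Named genes were the members of 22 lists (238 of 266 genes with reads) and, since no gene was called, the 10 largest log2 fold changes in each direction with at least 20 RPM, reads in at least 10% of a class and 1 direction in 4 groups. A sum's log2 ratio had 0.5 RPM added to each level.

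Chosen after values were seen were the share-of-cells measure with its 10-point limit, the genes named by it, the limit of 10 activated genes, the genes plotted, the fit of all 6 groups, the comparison with cells without any class II read, and the looks at plates and lanes. Gene coordinates were read from the GENCODE annotation (GRCm38, which is mm10). Some results are not reported here.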

Additional observations from a re-analysis of the deposited data

Results flagged for a closer look

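Among the titled plates of APP/PS1 hippocampus, plate 4 had a share of 2.60% positive cells (2 of 77, exact 95% interval 0.316 to 9.07%), while the other plates stood at 11.9% and above. Its gap to the nearest plate was 0.943 of the whole range, above Dixon's critical value for 4 values at the 95% level. Plates are technical parts of a group and not samples. Of the 6 groups looked at, this was the only one past that value, and chance flags about 1 group in 20. Plates 3 and 4 of this group shared lane 42, and the median depth of plate 4 was 533464 reads per cell, against 494500 to 736210 in the other plates. Whether plate, lane or mouse goes with this value was not tested.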

How the results depend on the processing

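The labels name no animals, so 1 sum per group and class was the smallest unit, and differences between mice could not be measured. Positive and other cells were compared within each group, as a block. No paired analysis was possible because the labels give the groups no shared replicate numbers. Lanes 41 and 42 (APP/PS1) and 37 and 38 (C57BL/6 and C57BL/6-ApoeKO) were shared by 2 groups each, and values by lane stand beside the results. Without the group block edgeR called 0 genes higher and 0 lower, with a median log2 fold change over all genes of -0.08 in place of -0.77. With size factors by relative log expression that median was -0.67, and with at least 3 class II genes required it was -2.63. The edgeR counts stayed at 0 in each setting run, and leaving out each group in turn gave 0 to 0 genes. DESeq2 called 45 higher and 614 lower, and 3.18% of genes by the Apoe interaction. Of the genes followed through each setting, its calls with their log2 fold changes were Cst7 (2.02), Itgax (1.67), Cd63 (0.89), H2-D1 (1.24), H2-T23 (1.08), Mrgpre (2.83), Aifm1 (1.83), Hexa (0.69), C1qa (0.36), Tyrobp (0.48), Cand1 (-9.30), Arrdc3 (-9.06) and Med9 (-7.99). The interaction with amyloid could not be fitted as designed, since the groups without amyloid had 7 and 9 positive cells, and its alternatives were not run. The cortex groups alone gave 2 groups, fewer than the 3 set as the minimum for a test.

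With at least 3 class II genes required, the shares of positive cells were 4.82% (APP/PS1 cortex), 4.76% (APP/PS1 hippocampus), 1.5% (APP/PS1-ApoeKO cortex), 0.935% (APP/PS1-ApoeKO hippocampus), 0.613% (C57BL/6) and 0.958% (C57BL/6-ApoeKO). With 2 of the 3 H2 genes required they were 5.14%, 4.76%, 1.5%, 0.935%, 0.613% and 1.28%. For APP/PS1-ApoeKO cortex the share was 1.80% with 5 reads in each of 2 genes, 1.80% after thinning and 1.78% without cells of no labelled read total. In all of these the APP/PS1 groups stayed above the others. Genes at least 10 points higher by share (3.3% of genes) were 9.07% with at least 3 class II genes and 5.2% with 5 reads in each of 2, and leaving out each group gave 3.5 to 5.86%. Those at least 10 points lower (0.341%) were 1.68% and 0.682%, 0.604% without cells of no labelled read total, and 0.385 to 0.901% leaving out each group.

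Some log2 fold changes of named genes changed sign, none of which had passed the test. In the cortex groups they were Clec7a -2.0, Igf1 -1.59, Ifitm3 -0.98, Lpl -2.30, Ifit3 -2.92, H2-Ob -0.46 and Fabp5 0.11 (from -0.13). With all 6 groups they were Itgax -0.21, Axl -0.11, Bst2 -0.086, Lpl -2.46 and Ifit3 -2.39. With at least 3 class II genes they were Ifit3 -2.67, Aifm1 -0.15, H2-Ob -0.01, C1qa -0.019 and Fabp5 0.28, and with 2 of the 3 H2 genes -2.72, -0.17, -0.043, -0.032 and 0.28. With 5 reads in each of 2 genes they were H2-DMb1 -0.075, H2-Ob -0.085 and Fabp5 0.28. Without cells of no labelled read total they were H2-Ob -0.37 and Fabp5 0.79. Without cells with markers of another type they were Lpl -3.23, H2-DMb1 -0.16 and H2-Ob -1.21. After thinning they were H2-Ob -0.24 and Fabp5 0.89. H2-Ob was -0.05 with no filter on low counts, and Fabp5 was 2.26 without the block and 0.77 against cells without any class II read. Leaving out single groups gave ranges of -1.04 to 1.23 (Lpl), -0.19 to 1.96 (Ifit3), -0.16 to 0.53 (H2-Ob) and -4.26 to 2.77 (Fabp5). The cause of these changes was not tested.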
